A study of Mus musculus with 12 samples.

Results

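The genes described here are 58 genes of the mitotic spindle, the kinetochore and the spindle checkpoint, taken by symbol from the 32288 genes and transgenes of a bulk RNA-seq count table and followed gene by gene through 4 groups of mouse osteoblast libraries. All 58 were in the table, and 49 of them had more than 3 counts in all 12 libraries. They fall into 8 roles: 5 spindle checkpoint genes, 10 mitotic kinases, cyclins and entry factors, 4 genes of anaphase onset, 9 kinesins, 11 kinetochore and centromere genes, 4 genes of the chromosomal passenger complex, 7 genes of chromosome condensation and the chromosome surface, and 8 genes of spindle assembly and cytokinesis.

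In mitosis, CDK1 bound to cyclin B drives chromosome condensation and spindle assembly, and Polo-like and Aurora kinases act beside it. The spindle checkpoint holds back the anaphase-promoting complex (APC/C) and its activator CDC20 until each kinetochore is attached to microtubules, after which securin and cyclin B are destroyed, separase cuts cohesin and the cell divides. Many of these genes are transcribed late in the cell cycle under control of the DREAM and MYB-MuvB complexes, FOXM1 and NF-Y, so their RNA is a widely used readout of cycling cells. In growing long bones, dividing osteoblast-lineage cells lie in the metaphysis, next to the growth plate.

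The groups were built from mGFP+ cells that lacked CD31, CD45 and TER119 on their surface and were sorted from the metaphysis of femurs and tibias. Every animal carried *Osx-CreERT2*, a tamoxifen-activated Cre read from the *Osx* (*Sp7*) osteoblast gene, and the *mTmG* reporter, which Cre switches from membrane tdTomato to membrane GFP. Juvenile (4 libraries, 3 weeks of age) and adult (4 libraries, 8 weeks of age) *Osx*+ osteoblasts came from mice with only these alleles, with 2 male mice pooled per library and cells taken 2 days after tamoxifen had been given on 3 days. The c-Myc group (2 libraries) also carried *LSL-tTA* and *Col1a1::TetO–c-Myc*, so that Cre turned on a tetracycline-controlled transactivator that drives *c-Myc*. The c-Myc + R172H group (2 libraries) added *Trp53-LSL-R172H*, a Cre-activated mutant allele of p53. Both induced groups were labelled as 3 weeks of age, received tamoxifen 2 times, were taken 7 days after it, came from both sexes, and are called 5-week-old in the dissection protocol, with about 5 mm of bone kept below the growth plate, where controls kept about 2 mm. The paper states that mice with such tetracycline-controlled alleles, or pregnant females, drank doxycycline or tetracycline before the analysis, to prevent leaky expression. Induction therefore cannot be told apart from the number and timing of tamoxifen treatments, this earlier drug, age at dissection and trimming. This holds in any comparison of an induced with a juvenile library. Adult replicates are numbered by their sample titles, which differ from the numbers in their library names.

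Total counts were 10256521 to 12648874 in juvenile, 9066154 to 10823288 in adult, 13779052 to 15684412 in c-Myc and 12823338 to 13745901 in c-Myc + R172H libraries. *Col1a1*, *Col1a2* and *Gm26917* together took 57.1 to 65.3% of juvenile, 42.4 to 56.1% of adult, 41.8 to 46.1% of c-Myc and 35.2 to 37.6% of c-Myc + R172H counts. Within this sum the genes shifted in opposite directions. *Gm26917* took 4.70 to 10.49% of counts in the control and 26.5 to 29.4% in the induced libraries. *Col1a1* took 21.4 to 39.1% in the control and 5.61 to 11.25% in the induced libraries. Levels are therefore given as CPM, counts per 1000000 counts of a library, scaled by TMM, a factor that compensates for such dominant genes, and 3 counts, the level taken as detection, are worth 0.274 to 0.417 CPM in juvenile and 0.137 to 0.170 CPM in c-Myc libraries. *Myc* itself stood at 39.8 to 52.2 CPM in the juvenile, 44.7 to 51.2 CPM in the adult, 624 and 658 CPM in the c-Myc and 639 and 748 CPM in the c-Myc + R172H libraries. The R172H allele differs from *Trp53* by a single codon and is not seen in gene counts. Osteoblast markers were detected in every group (12 of 12), red cell, B cell, myeloid and endothelial markers each summed to at most 42.6 CPM in any library, osteoclast markers to 203 to 332 CPM in juvenile, 221 to 411 CPM in adult, 84.0 to 105 CPM in c-Myc and 52.3 CPM in both c-Myc + R172H libraries, and the 12 chondrocyte markers summed to 8984 to 26900 CPM in juvenile, 35270 to 129100 CPM in adult, 354 to 569 CPM in c-Myc and 166 to 173 CPM in c-Myc + R172H libraries. *Xist* was at 234 CPM in c-Myc replicate 2, at 212 CPM in c-Myc + R172H replicate 2 and at most 1.24 CPM in the other 10 libraries, replicate 1 of each induced group among them.

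The 58 genes together were low in both control groups and higher in all 4 induced libraries. Their summed level was 435, 433, 305 and 275 CPM in juvenile replicates 1 to 4 and 497, 302, 315 and 383 CPM in adult replicates 1 to 4. It was 1773 and 1638 CPM in the c-Myc and 1857 and 1743 CPM in the c-Myc + R172H libraries, where the first of each pair is the library with *Xist* as low as in the male controls. The juvenile (362 ± 84.2 CPM, SD, n = 4) and adult (374 ± 89.2 CPM, SD, n = 4) sums overlapped, and every induced library lay far above every control library. As a share of all counts, with no scaling, these genes took 0.0190 to 0.0377% in juvenile, 0.0253 to 0.0453% in adult, 0.210 to 0.248% in c-Myc and 0.274 to 0.295% in c-Myc + R172H libraries. In such bulk libraries, more cells in mitosis and more of these transcripts in each cell cannot be told apart. The chondrocyte marker sum ran the other way between control and induced libraries but not within the controls, where juvenile replicate 4 was lowest and adult replicate 1 highest in both sums, and its part in the result was not tested.

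**Figure D1:**
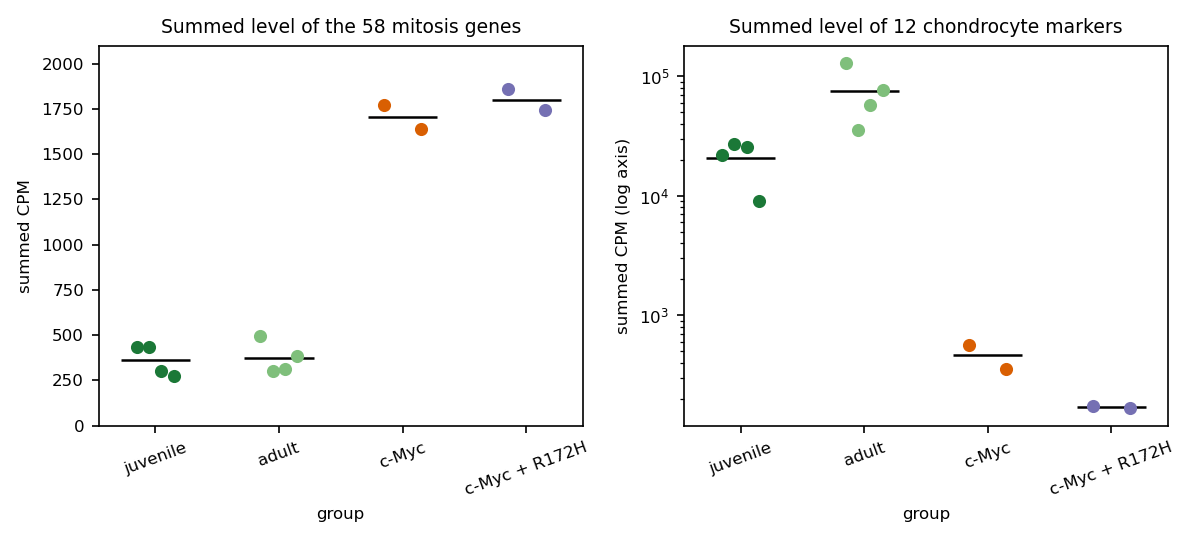
Left, the summed level of the 58 mitosis genes in each library, in CPM on a linear axis from 0. Right, the summed level of 12 chondrocyte markers in the same libraries on a log axis. Points are libraries and black lines are group means. All 4 induced libraries lie at 1638 CPM or above on the left, where no control library exceeds 497 CPM, and at 569 CPM or below on the right.

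Juvenile replicates 1 and 2 held more of these transcripts than replicates 3 and 4. Juvenile replicate 1 was the highest of its group in 24 of the 58 genes, and replicates 3 and 4 were the lowest in 21 and 27. In the adult group, replicate 1 was the highest in 34 genes and replicate 2 the lowest in 31. Across the 58 genes the median ratio of the highest to the lowest library was 2.50 in juvenile and 2.67 in adult, against 1.11 in c-Myc and 1.09 in c-Myc + R172H, where counts were larger and there were 2 libraries. Replicate 1 was the higher c-Myc library in 46 genes and the higher c-Myc + R172H library in 48, and in both groups replicate 2 is the library with *Xist*. All 4 induced libraries exceeded all 4 juvenile libraries in 56 of the 58 genes and all 8 control libraries in 55. The matching shares of all tested genes were not computed. Taken 1 induced group at a time, both libraries exceeded all juvenile libraries in 35.7% of tested genes in c-Myc and 36.6% in c-Myc + R172H.

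**Figure D2:**
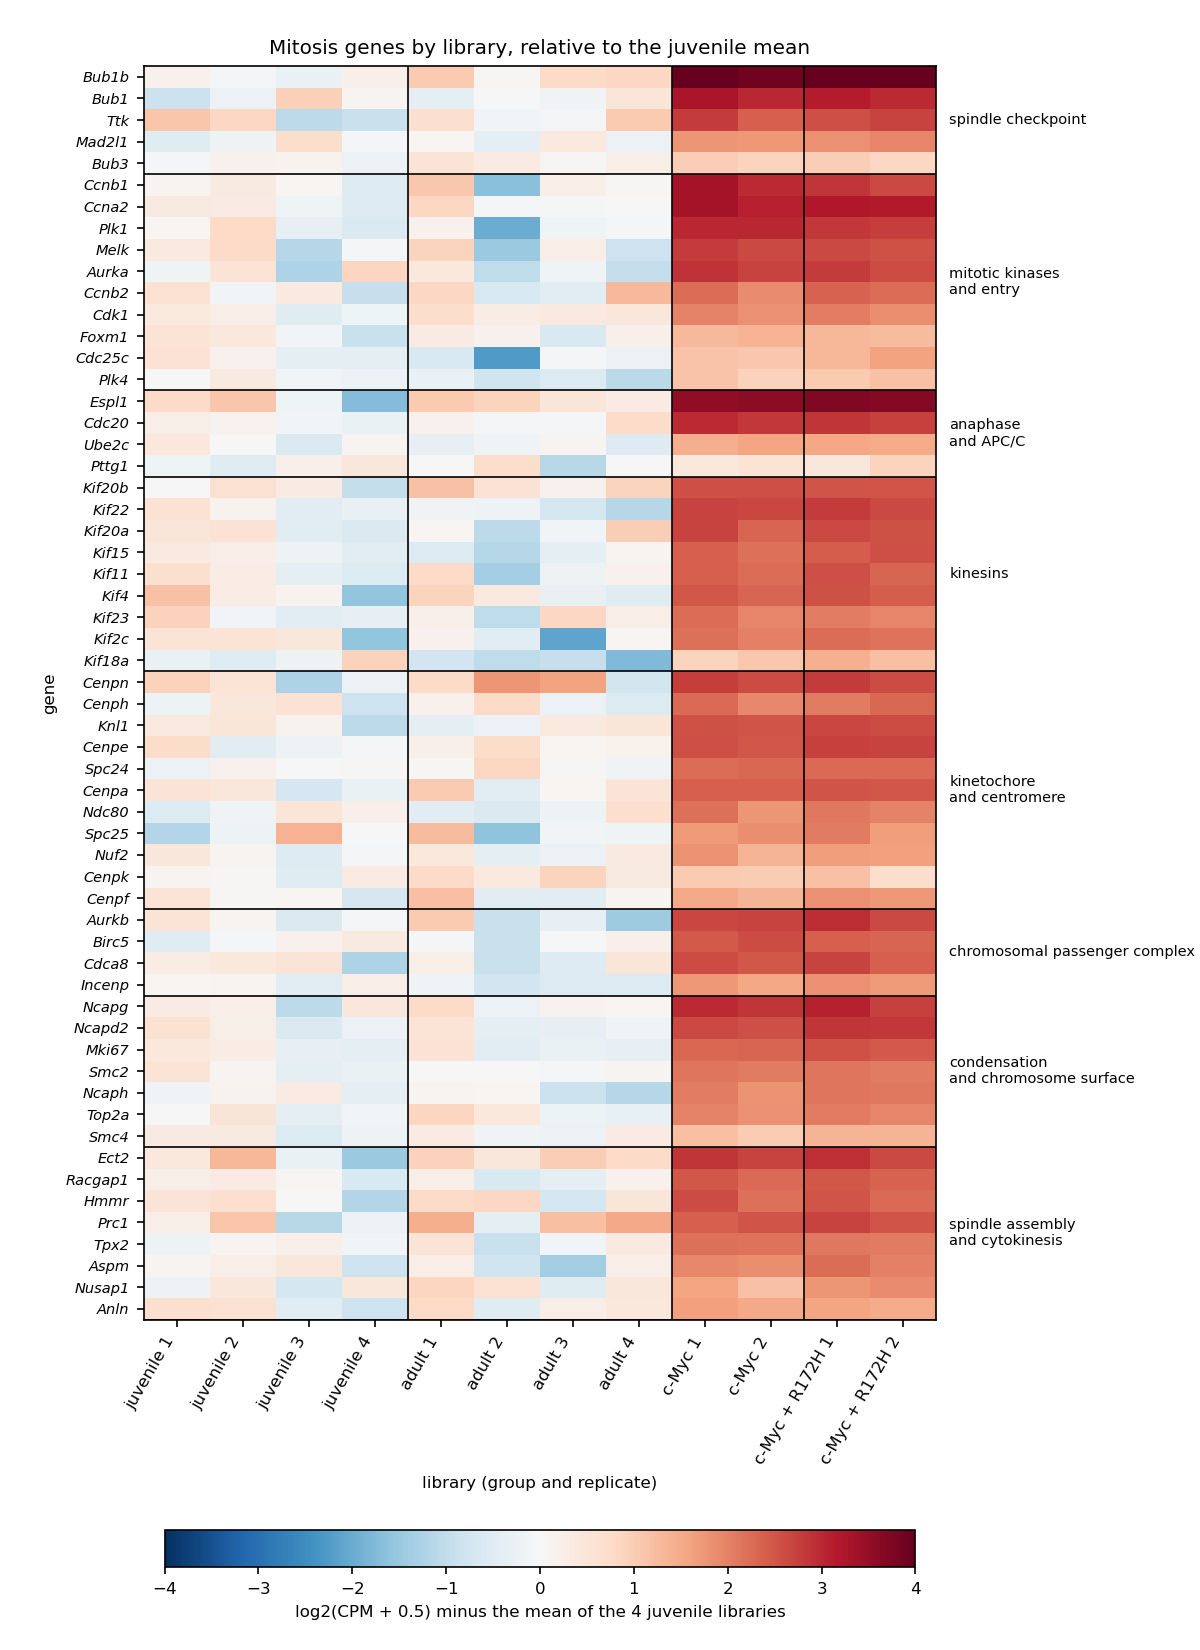
Level of each of the 58 genes (rows, grouped by role and ordered by fold change within a role) in each of the 12 libraries (columns), as log2(CPM + 0.5) minus the mean of the 4 juvenile libraries. Red is above and blue below the juvenile mean. The 4 induced columns are red in nearly every row, and the adult columns hold both colours.

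Divided by exon length (CPM per kilobase), *Cdc20*, which activates the APC/C at anaphase, had the highest level of the 58 genes in all 4 groups, at 6.02 ± 1.02 in juvenile (SD, n = 4), 7.01 ± 2.08 in adult (SD, n = 4), 46.2 ± 3.55 in c-Myc (SD, n = 2) and 42.7 ± 2.46 in c-Myc + R172H (SD, n = 2). The next levels per kilobase in juvenile libraries, 3.81 ± 1.14 for the condensin core ATPase gene *Smc4*, 3.51 ± 1.29 for the condensin I subunit gene *Ncapd2* and 3.41 ± 0.968 for *Mki67*, lay within each other's SD (n = 4). In c-Myc libraries *Ncapd2* stood at 20.8 ± 0.677 CPM per kilobase and *Smc4* at 8.11 ± 0.797 (SD, n = 2), and the ranges of both genes no longer overlapped. Within the NDC80 complex, which binds microtubules at the kinetochore, *Spc24* had the highest and *Ndc80* the lowest level per kilobase in every group, 4.98-fold apart in juvenile, 6.72-fold in adult, 5.70-fold in c-Myc and 5.41-fold in c-Myc + R172H. Exon lengths are the union of annotated exons, so genes with many alternative exons read low on this scale.

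The first comparison set juvenile against adult osteoblasts. None of the 54 genes that passed the expression filter was called (edgeR's quasi-likelihood test, adjusted p below 0.05), where 5.12% of the 11345 tested genes were called in either direction. Of the 54, 27 had a higher and 27 a lower fitted level at the juvenile age, where 50% of tested genes had a higher one. The median log2 fold change, juvenile over adult, was −0.02, and that of all tested genes was 0.00. At an unadjusted p below 0.05 there were 3 genes, and DESeq2 called 0 and also had 3 at that level. *Kif18a*, *Cenph*, *Cenpk* and *Spc25* were too low to be tested.

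The 3 genes with the smallest p differed in direction. *Plk4*, the kinase that starts centriole duplication, was at 7.31, 9.39, 6.68 and 6.09 CPM in juvenile and 5.97, 3.95, 4.79 and 3.20 CPM in adult libraries. Every juvenile library was above every adult library, as was so, in the same direction, for 1 of 54 genes here and for 6.17% of all tested genes (log2 fold change 0.71, SE 0.32, adjusted p = 0.221). *Bub1b*, which encodes the checkpoint protein BUBR1, was at 4.11, 3.41, 2.92 and 4.22 CPM in juvenile and 8.10, 3.73, 6.47 and 6.82 CPM in adult libraries. Adult replicate 2 fell inside the juvenile range and the other 3 adult libraries above it (log2 fold change −0.78, SE 0.35, adjusted p = 0.224). With all 12 libraries in 1 fit the adjusted p of *Bub1b* was 0.0357, and over the alternatives it ran from 0.0357 to 0.502. *Incenp*, the scaffold of the chromosomal passenger complex, was at 13.8, 13.9, 9.32 and 15.8 CPM in juvenile and 11.8, 7.45, 8.67 and 8.74 CPM in adult libraries, and the ranges overlapped through juvenile replicate 3 and adult replicate 1 (log2 fold change 0.52, SE 0.24, adjusted p = 0.241). *Mki67*, whose protein coats mitotic chromosomes and is the usual histological mark of cycling cells, was at 44.5, 40.9, 26.3 and 25.7 CPM in juvenile and 49.7, 24.0, 27.7 and 26.3 CPM in adult libraries. The highest and the lowest of these 8 values were both adult libraries (log2 fold change 0.10, SE 0.24, adjusted p = 0.886). The chondrocyte marker sum was higher in every adult than in every juvenile library, and *Lyz2*, a myeloid marker, was at 3.85 to 9.26 CPM in adult and 0 to 0.974 CPM in juvenile libraries. Their part in these values was not tested.

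The second comparison set c-Myc against juvenile osteoblasts. All 58 genes had a fold change above 1, as did 51.3% of all tested genes, and 54 were called higher (adjusted p below 0.05 and a log2 fold change of at least 1), where 18.4% of the 12588 tested genes were called higher. None of the 58 was called lower, against 16% of all tested genes. The median log2 fold change was 2.28, a 4.87-fold difference, and that of all tested genes was 0.04. Without the fold threshold 55 were called higher (28.4% of all tested genes), and both c-Myc libraries were above all juvenile libraries in 56 (96.6%, against 35.7% of all tested genes). Values ran from 0.48 to 4.06: 7 genes were at least 8-fold higher, 31 were 4- to 8-fold higher, 18 were 2- to 4-fold higher and 2 were under 2-fold. Scaled by library totals in place of TMM, the median of the 58 genes was 3.11 and that of all tested genes 0.87.

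The third comparison set c-Myc + R172H against the same juvenile libraries, so its values are not independent of those for c-Myc. Again all 58 genes had a fold change above 1, as did 52.4% of tested genes, and 55 were called higher, where 19.6% of tested genes were. None was called lower, against 17.9%. Without the fold threshold 56 were called higher (30.4% of tested genes), and 98.3% of the 58 did not overlap with the juvenile libraries (36.6% of tested genes). The median log2 fold change was 2.44, or 5.42-fold, against 0.08 for all tested genes, and values ran from 0.74 to 4.15. In both comparisons 12 of 12 chondrocyte markers and 10 of 12 osteoblast markers were called lower, and *Ctsk*, an osteoclast marker, was called lower (126 to 147 CPM in juvenile and 13.8 to 20.3 CPM in induced libraries), with *Mmp9* also lower in c-Myc + R172H. A single marker each of endothelial, B cell and myeloid cells was called higher in both: *Egfl7* (5.81 to 7.43 CPM in the induced and at most 0.516 CPM in the juvenile libraries), *Ighm* (11.3 to 18.3 against at most 0.722 CPM) and *Lyz2* (1.39 to 6.49 against at most 0.974 CPM). The other B cell and myeloid markers tested in c-Myc were not called and differed in direction. The log2 fold change was 1.10 for *Cd79a* and 0.31 for *Csf1r*, but −0.90 for *Ebf1* and −1.37 for *Prtn3*. The endothelial *Cdh5* and *Pecam1* and the pan-leukocyte *Ptprc* were at 0.645 CPM or below in every library. All 3 were at 0 CPM in every juvenile library. In the induced libraries *Pecam1* was at 0.284 to 0.645 CPM, *Ptprc* at 0.0496 to 0.397 CPM and *Cdh5* at 0 to 0.298 CPM. The part of these markers in the rise of the mitosis genes was not tested.

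**Figure D3:**
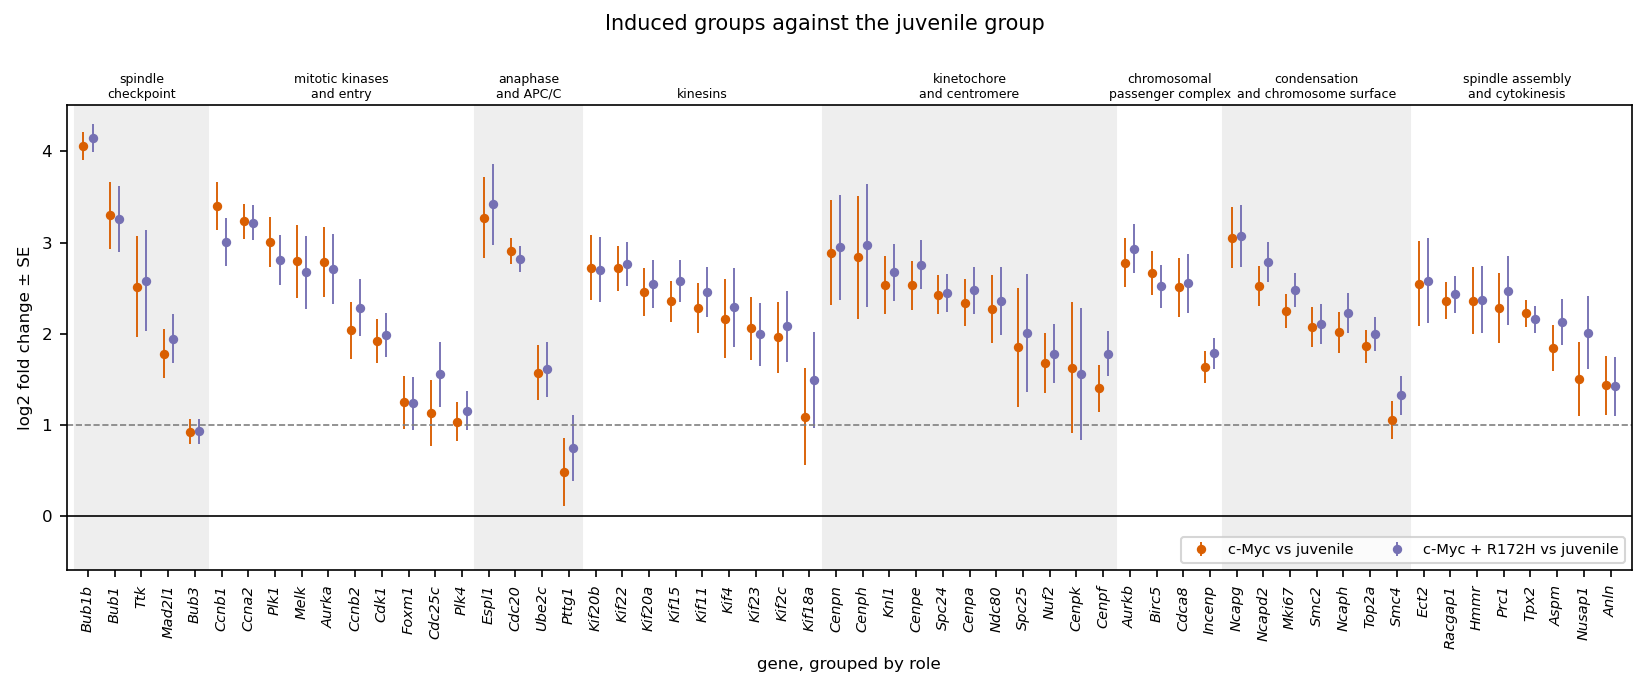
log2 fold change of each of the 58 genes against the juvenile group, with bars of 1 SE, for c-Myc (orange) and c-Myc + R172H (violet). Both sets share the 4 juvenile libraries. The dashed line marks the log2 fold change of 1 needed for a call. Every point lies above 0, from 0.48 (*Pttg1* in c-Myc) to 4.15 (*Bub1b* in c-Myc + R172H).

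Among the spindle checkpoint genes, 4 of 5 were called higher in both induced groups, with a median log2 fold change of 2.52 in c-Myc and 2.58 in c-Myc + R172H. *Bub1b* (chr2:118598211-118641591, plus strand) had the largest difference of all 58 genes. Its level was 66.2 and 59.2 CPM in c-Myc and 66.3 and 64.4 CPM in c-Myc + R172H libraries, where no juvenile library exceeded 4.22 CPM. The log2 fold change was 4.06, SE 0.15, adjusted p = 6.34e-09 in c-Myc and 4.15, SE 0.15, adjusted p = 1.87e-09 in c-Myc + R172H. *Bub1*, the kinase that recruits checkpoint proteins to the kinetochore, was at 0.822, 1.55, 4.17 and 2.11 CPM in juvenile, 1.32, 1.92, 1.68 and 2.88 CPM in adult, 22.4 and 18.7 CPM in c-Myc and 20.9 and 18.3 CPM in c-Myc + R172H libraries. Juvenile values were spread widely, with replicate 3 highest, and all induced libraries lay above them (log2 fold change 3.30, SE 0.37, adjusted p = 9.55e-06 in c-Myc and 3.26, SE 0.37, adjusted p = 9.23e-06 in c-Myc + R172H). *Ttk* and *Mad2l1*, a checkpoint kinase and the inhibitor of CDC20, rose 5.72-fold and 3.44-fold in c-Myc.

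*Bub3* (chr7:131560222-131571895, plus strand), the WD-repeat partner of BUB1 and BUBR1, was the exception in this role. Its level was 22.1, 25.8, 25.2 and 19.4 CPM in juvenile and 33.6, 28.9, 23.6 and 26.9 CPM in adult libraries. Induced libraries were at 46.1 and 43.0 CPM in c-Myc and 46.3 and 41.3 CPM in c-Myc + R172H, all above the control libraries. The difference passed the adjusted p but not the fold threshold (log2 fold change 0.92, SE 0.14, adjusted p = 0.000111 in c-Myc and 0.93, SE 0.14, adjusted p = 9.45e-05 in c-Myc + R172H). Scaled by library totals it passed both, at 1.76 and 1.97.

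All 10 mitotic kinases, cyclins and entry factors were called higher in both induced groups (median log2 fold change 2.41 and 2.48). The S- and M-phase cyclin gene *Ccna2*, the one with the most reads, was at 8.04, 7.84, 5.42 and 4.22 CPM in juvenile and 11.4, 5.87, 5.95 and 6.18 CPM in adult libraries. Its induced libraries were at 67.0 and 57.3 CPM in c-Myc and 61.2 and 59.2 CPM in c-Myc + R172H, with no overlap (log2 fold change 3.23, SE 0.19, adjusted p = 6.8e-08 and 3.22, SE 0.19, adjusted p = 4.64e-08). *Ccnb1* (chr13:100778650-100786570, minus strand), the mitotic cyclin whose destruction ends mitosis, had the largest difference of the role in c-Myc. It stood at 2.01, 2.48, 1.95 and 1.12 CPM in juvenile, 4.46, 0.226, 2.33 and 1.92 CPM in adult, 23.2 and 18.0 CPM in c-Myc and 16.6 and 14.2 CPM in c-Myc + R172H libraries. Both c-Myc libraries were above both c-Myc + R172H libraries (log2 fold change against juvenile 3.40, SE 0.26, adjusted p = 4.87e-07 and 3.01, SE 0.27, adjusted p = 1.14e-06). *Plk1* and *Aurka*, the kinases of spindle pole maturation, rose 8.06-fold and 6.88-fold in c-Myc, *Cdk1* 3.78-fold and *Foxm1*, a transcription factor of this gene programme, 2.37-fold. *Plk4* had the smallest difference of the role, with 16.6 and 14.1 CPM in c-Myc and 15.7 and 17.1 CPM in c-Myc + R172H libraries, all above the juvenile values given before (log2 fold change 1.03, SE 0.22, adjusted p = 0.00142 and 1.15, SE 0.21, adjusted p = 0.000557). Its call in c-Myc rests on the fold threshold: without juvenile replicate 3, juvenile replicate 4 or c-Myc replicate 1 the log2 fold change was 0.98, 0.95 and 0.92. With upper-quartile scaling it was 0.96, and with the replicate number as a block it was 0.86 in c-Myc and 0.97 in c-Myc + R172H. Numbers 3 and 4 have no induced library, so here and below this block compares induced libraries with juvenile replicates 1 and 2 only.

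At anaphase onset, *Cdc20*, *Ube2c* and *Espl1* were called higher in both groups and *Pttg1* in neither. *Cdc20* (chr4:118432901-118437352, minus strand) was at 13.2, 12.4, 10.3 and 9.07 CPM in juvenile, 12.6, 10.6, 10.5 and 18.8 CPM in adult, 91.0 and 81.6 CPM in c-Myc and 83.0 and 76.5 CPM in c-Myc + R172H libraries. All induced libraries were far above all controls, of which adult replicate 4 was the highest (log2 fold change 2.90, SE 0.14, adjusted p = 1.87e-08 and 2.82, SE 0.14, adjusted p = 1.24e-08). *Espl1*, which encodes separase, varied widely among the juvenile libraries, at 6.58, 8.36, 3.20 and 0.745 CPM, and was at 8.10, 7.23, 5.31 and 4.69 CPM in adult libraries. In the induced libraries it was at 48.1 and 48.6 CPM in c-Myc and 53.1 and 51.8 CPM in c-Myc + R172H, all far above the highest control (log2 fold change 3.27, SE 0.44, adjusted p = 0.000148 and 3.42, SE 0.44, adjusted p = 9.56e-05). *Ube2c*, the E2 enzyme of the APC/C, rose 2.97-fold in c-Myc, and 22.8% of its exon length lies opposite *Tnnc2*.

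*Pttg1* (chr11:43420250-43426251, minus strand) encodes securin, the inhibitor of separase. Its values were 2.74, 2.06, 3.62 and 4.47 CPM in juvenile, 3.04, 5.42, 1.16 and 3.09 CPM in adult, 4.29 and 4.76 CPM in c-Myc and 4.44 and 6.21 CPM in c-Myc + R172H libraries. The ranges overlapped in every pairing of groups. The log2 difference was 0.48, SE 0.37, adjusted p = 0.298 in c-Myc and 0.74, SE 0.37, adjusted p = 0.103 in c-Myc + R172H, which does not show that the level stayed the same. Scaled by library totals, both differences were called, at 1.33 and 1.80, and with the replicate number as a block the c-Myc + R172H value was called, at 1.12.

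Of the 9 kinesins, 8 were called higher in c-Myc and 9 in c-Myc + R172H (median log2 fold change 2.28 and 2.45). *Kif20a*, a motor of the central spindle and the kinesin with the most reads, was at 11.1, 11.9, 5.56 and 5.09 CPM in juvenile, 8.30, 3.499, 7.25 and 15.99 CPM in adult, 54.2 and 41.7 CPM in c-Myc and 51.8 and 47.8 CPM in c-Myc + R172H libraries. All induced libraries were above all controls, among which adult replicate 4 was the highest (log2 fold change 2.46, SE 0.26, adjusted p = 7.19e-06 and 2.54, SE 0.26, adjusted p = 4.61e-06). Of its exon length, 29.3% lies opposite *Cdc23*, and without a stated strand setting reads of both genes cannot be told apart there. *Kif20b*, a related motor of cytokinesis, had the largest difference of the kinesins in c-Myc, from 1.64, 2.79, 2.23 and 0.621 CPM in juvenile and 4.35, 2.71, 1.94 and 3.52 CPM in adult to 12.2 and 12.4 CPM in c-Myc and 11.9 and 11.9 CPM in c-Myc + R172H libraries. Here the induced libraries lay within a narrow band (log2 fold change 2.72, SE 0.36, adjusted p = 4.08e-05 and 2.703, SE 0.36, adjusted p = 3.81e-05). *Kif11*, the motor that separates spindle poles, rose 4.87-fold and *Kif22*, a chromosome-arm motor, 6.57-fold in c-Myc.

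*Kif18a*, which limits microtubule length at the kinetochore, was near detection in the controls, at 0.913, 0.722, 0.974 and 2.73 CPM in juvenile and 0.506, 0.339, 0.388 and 0 CPM in adult libraries. It was at 2.65 and 3.06 CPM in c-Myc and 4.03 and 3.38 CPM in c-Myc + R172H libraries. Juvenile replicate 4 lay at the level of the c-Myc libraries and apart from the other 3 juvenile libraries. The difference was not called in c-Myc (log2 fold change 1.09, SE 0.54, adjusted p = 0.106) and was called in c-Myc + R172H (log2 fold change 1.49, SE 0.53, adjusted p = 0.029). Without juvenile replicate 4 the c-Myc difference was called, at 1.69 with an adjusted p of 0.00506 by edgeR's quasi-likelihood test, as it was when scaled by library totals (1.94) and with the replicate block (1.76). The c-Myc + R172H call was lost without juvenile replicate 1 (adjusted p = 0.0581), without juvenile replicate 2 (adjusted p = 0.0617), without either c-Myc + R172H library (adjusted p = 0.198 and 0.114), with all 12 libraries in the fit (adjusted p = 0.088) and with only the compared groups in it (adjusted p = 0.0707).

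Of the 11 kinetochore and centromere genes, 10 were called higher in both induced groups (median log2 fold change 2.34 and 2.45). *Cenpa*, the histone H3 variant that marks the centromere, had the most reads of the role, at 8.22, 7.84, 3.34 and 4.596 CPM in juvenile and 12.3, 3.95, 5.95 and 8.32 CPM in adult libraries. It was at 31.6 and 31.5 CPM in c-Myc and 34.4 and 33.8 CPM in c-Myc + R172H libraries, all above the controls (log2 fold change 2.34, SE 0.26, adjusted p = 8.99e-06 and 2.48, SE 0.26, adjusted p = 4.58e-06). *Cenpn*, which binds the CENP-A nucleosome, had the largest difference of the role in c-Myc, on small counts, at 1.74, 1.24, 0 and 0.497 CPM in juvenile, 1.52, 3.499, 3.11 and 0.213 CPM in adult, 7.44 and 6.69 CPM in c-Myc and 7.74 and 6.70 CPM in c-Myc + R172H libraries. Juvenile replicate 3 had no count, and the SE was wide (log2 fold change 2.89, SE 0.58, adjusted p = 0.00106 and 2.95, SE 0.58, adjusted p = 0.000834). *Cenpf*, a large protein of the outer kinetochore, had the smallest difference of the role in c-Myc, with 11.6, 8.05, 8.21 and 4.72 CPM in juvenile and 18.7, 5.53, 5.56 and 8.53 CPM in adult libraries. Its induced libraries were at 23.3 and 20.8 CPM in c-Myc and 29.2 and 27.3 CPM in c-Myc + R172H, and adult replicate 1 was the control nearest to them (log2 fold change 1.40, SE 0.25, adjusted p = 0.000497 and 1.78, SE 0.25, adjusted p = 6.04e-05).

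*Cenpk*, a subunit of the constitutive centromere network, had the fewest reads of the 58 genes. It was at 0.457, 0.413, 0.139 and 0.621 CPM in juvenile, 1.013, 0.677, 1.16 and 0.640 CPM in adult, 1.32 and 1.30 CPM in c-Myc and 1.51 and 0.943 CPM in c-Myc + R172H libraries, and adult replicates 1 and 3 were above c-Myc + R172H replicate 2. Its difference from juvenile was not called (log2 fold change 1.63, SE 0.72, adjusted p = 0.0755 and 1.56, SE 0.72, adjusted p = 0.0844), and without juvenile replicate 4 it was called in both, at 1.85 and 1.78, as it was when scaled by library totals, at 2.44 and 2.58. The 4 genes of the NDC80 complex were all called: *Spc24* rose 5.37-fold, *Ndc80* 4.81-fold and *Nuf2* 3.20-fold in c-Myc, and *Spc25* rose by 1.85 on the log2 scale. *Knl1* and the motor *Cenpe* rose 5.78-fold and 5.77-fold.

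The 4 genes of the chromosomal passenger complex, which corrects faulty attachments and later marks the midzone, were all called higher (median log2 fold change 2.59 in c-Myc and 2.53 in c-Myc + R172H). *Aurkb*, its kinase, had the largest difference, from 3.93, 2.79, 1.53 and 2.36 CPM in juvenile and 5.77, 1.13, 1.94 and 0.640 CPM in adult to 19.0 and 19.1 CPM in c-Myc and 23.1 and 18.5 CPM in c-Myc + R172H libraries. All induced libraries were above all controls (log2 fold change 2.78, SE 0.27, adjusted p = 3.17e-06 and 2.93, SE 0.27, adjusted p = 1.68e-06). *Incenp* had the most reads of the complex and the smallest difference, with 44.4 and 39.2 CPM in c-Myc and 47.4 and 43.7 CPM in c-Myc + R172H libraries beside the control values given before. Again the groups did not overlap (log2 fold change 1.63, SE 0.17, adjusted p = 6.14e-06 and 1.79, SE 0.17, adjusted p = 2.38e-06). *Birc5* (survivin) rose 6.35-fold and *Cdca8* (borealin) 5.68-fold in c-Myc.

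All 7 genes of chromosome condensation and the chromosome surface were called higher in both groups (median log2 fold change 2.08 and 2.23). *Mki67* (chr7:135689784-135716361, minus strand) had the most reads of the 58 genes, at 165 and 169 CPM in c-Myc and 197 and 186 CPM in c-Myc + R172H libraries. All were far above the control values given before (log2 fold change 2.25, SE 0.18, adjusted p = 7.31e-07 and 2.48, SE 0.18, adjusted p = 2.49e-07). *Ncapg*, a condensin I subunit, had the largest difference, from 2.28, 2.17, 0.556 and 2.48 CPM in juvenile and 3.24, 1.36, 1.94 and 1.81 CPM in adult to 17.1 and 15.5 CPM in c-Myc and 18.3 and 14.1 CPM in c-Myc + R172H libraries. Juvenile replicate 3 was lowest and the other 3 juvenile libraries were close together (log2 fold change 3.06, SE 0.34, adjusted p = 8.71e-06 and 3.07, SE 0.34, adjusted p = 7.19e-06). *Smc4* had the smallest difference, at 24.7, 24.97, 13.1 and 16.7 CPM in juvenile, 24.3, 17.4, 16.2 and 24.0 CPM in adult, 45.2 and 39.3 CPM in c-Myc and 49.4 and 50.4 CPM in c-Myc + R172H libraries. The induced libraries were again above all controls (log2 fold change 1.05, SE 0.21, adjusted p = 0.00112 and 1.32, SE 0.21, adjusted p = 0.000168). Its c-Myc call rests on the fold threshold and was lost without juvenile replicate 3 (0.90), juvenile replicate 4 (0.97) or c-Myc replicate 1 (0.96), with upper-quartile scaling (0.98) and with the replicate block (0.74). *Top2a*, which untangles sister DNA, rose 3.63-fold in c-Myc.

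All 8 genes of spindle assembly and cytokinesis were called higher in both groups (median log2 fold change 2.25 and 2.27). *Racgap1*, a subunit of centralspindlin, had the most reads of the role, at 10.3, 10.9, 8.90 and 5.47 CPM in juvenile, 10.4, 5.53, 6.60 and 9.81 CPM in adult, 50.7 and 43.3 CPM in c-Myc and 50.4 and 46.2 CPM in c-Myc + R172H libraries. The induced libraries were far above both control groups (log2 fold change 2.36, SE 0.20, adjusted p = 1.03e-06 and 2.43, SE 0.20, adjusted p = 6.57e-07). *Ect2*, the exchange factor that activates RhoA at the cleavage furrow, had the largest difference, at 3.65, 7.22, 2.09 and 0.621 CPM in juvenile, 5.37, 3.73, 5.69 and 4.80 CPM in adult, 22.1 and 19.7 CPM in c-Myc and 23.2 and 18.8 CPM in c-Myc + R172H libraries. Its juvenile values were widely scattered, and all lay below the induced values (log2 fold change 2.55, SE 0.47, adjusted p = 0.000534 and 2.58, SE 0.47, adjusted p = 0.000443). *Anln*, the actin-binding scaffold of the furrow, had the smallest difference, at 15.2, 15.1, 6.95 and 5.22 CPM in juvenile, 16.5, 6.77, 11.5 and 12.9 CPM in adult, 30.9 and 28.4 CPM in c-Myc and 29.9 and 27.7 CPM in c-Myc + R172H libraries. Juvenile replicates 1 and 2 and adult replicate 1 came closest to the induced values without reaching them (log2 fold change 1.43, SE 0.32, adjusted p = 0.00229 and 1.42, SE 0.32, adjusted p = 0.00222). With the replicate block, which compares with juvenile replicates 1 and 2 only, both values fell under the fold threshold, at 0.94 and 0.93. *Tpx2*, *Prc1* and *Hmmr*, which organise spindle microtubules, rose 4.67-fold, 4.87-fold and 5.13-fold in c-Myc.

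The last comparison set c-Myc + R172H against c-Myc, 2 libraries each. None of the 58 genes was called or had an unadjusted p below 0.05 (edgeR's quasi-likelihood test on the fit shared with the juvenile libraries), where 0.469% of the 12588 tested genes were called, and DESeq2 also had 0 at either level. The median log2 fold change was 0.09, and that of all tested genes was 0.00. Of the 58, 44 (75.9%) had a fold change above 1, as did 49.2% of all tested genes. Both c-Myc + R172H libraries were above both c-Myc libraries in 16 genes (27.6%, against 17.6% of all tested genes) and below both in 6 (10.3%, against 27.4%). With each of these 4 libraries left out in turn, the median ran from −0.01, without c-Myc replicate 2, to 0.13, without c-Myc replicate 1. All 7 genes of chromosome condensation and the chromosome surface had a fold change above 1, with 4 of them not overlapping between the groups. Of the 11 kinetochore and centromere genes, 10 had one, also with 4 not overlapping. Of the 10 mitotic kinases and entry factors, 4 had one, with 2 not overlapping upwards and 3 downwards. These roles were picked out after the values were seen.

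The 3 genes with the smallest p were *Ccnb1*, *Cenpf* and *Nusap1*. For *Ccnb1* the log2 fold change was −0.39, SE 0.27, adjusted p = 1, with the c-Myc + R172H libraries lower. For *Cenpf* it was 0.38, SE 0.28, adjusted p = 1, with both c-Myc + R172H libraries higher. *Nusap1*, which bundles microtubules at chromosomes, was at 1.37, 2.48, 0.835 and 2.48 CPM in juvenile, 3.44, 2.82, 1.04 and 2.45 CPM in adult, 5.98 and 4.42 CPM in c-Myc and 6.96 and 7.55 CPM in c-Myc + R172H libraries, with no overlap of the induced groups (log2 fold change 0.51, SE 0.44, adjusted p = 1). Against juvenile libraries *Nusap1* differed in c-Myc (log2 fold change 1.504, SE 0.40, adjusted p = 0.00737), a call lost without c-Myc replicate 1 (adjusted p = 0.102), and in c-Myc + R172H (log2 fold change 2.01, SE 0.40, adjusted p = 0.000915). In a fit of only these 4 libraries, 3 genes were called higher, *Cenpf*, *Ncapd2* and *Mki67*, where 1.55% of all tested genes were called higher. *Ncapd2*, named here after its values were seen, was at 133 and 127 CPM in c-Myc and 156 and 151 CPM in c-Myc + R172H libraries. With the replicate number as a block none was called.

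**Figure D4:**
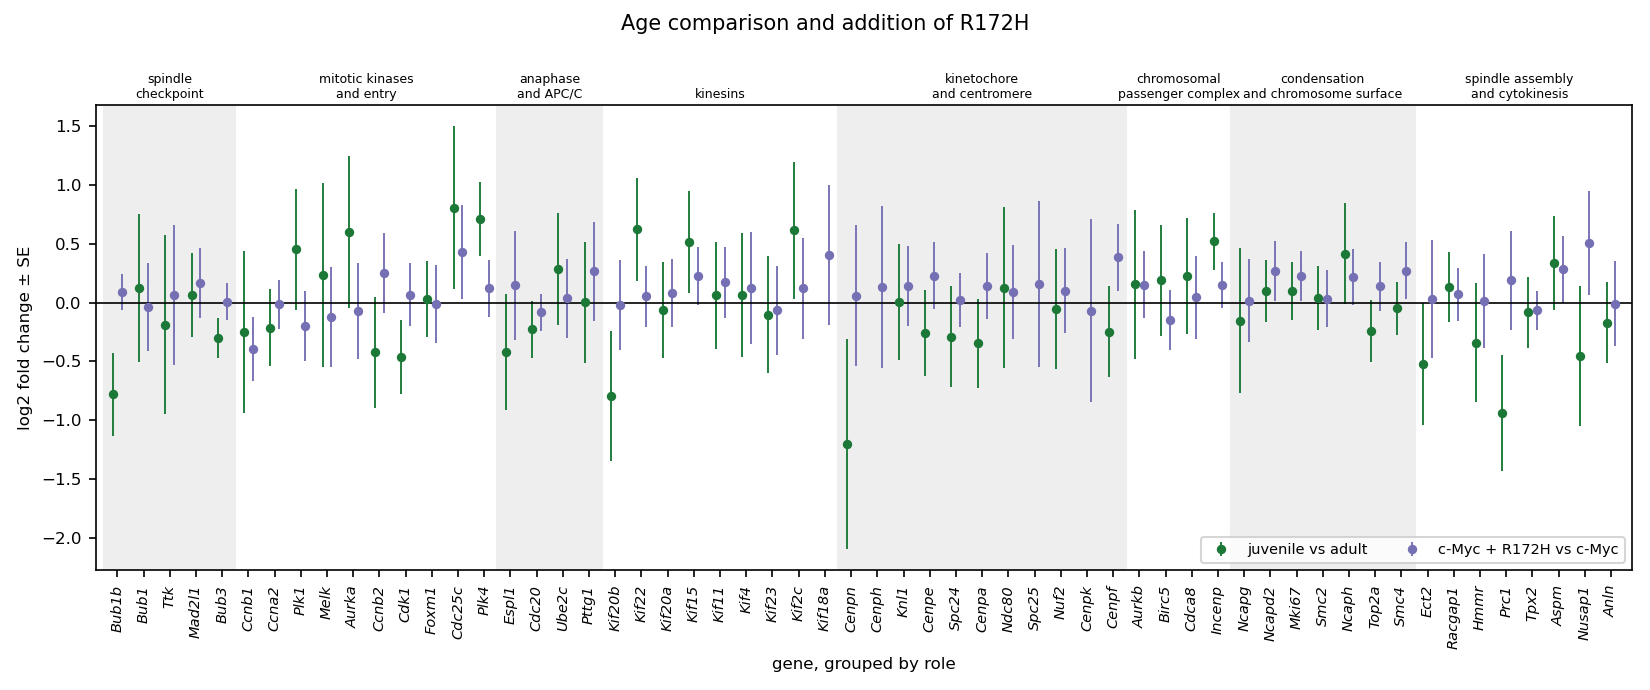
log2 fold change with bars of 1 SE for juvenile over adult (green) and c-Myc + R172H over c-Myc (violet), for the genes tested. Points scatter on both sides of 0 in the age comparison and lie between −0.39 and 0.51 for the addition of R172H. No gene was called in either comparison.

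A further 100 genes of the same process, grouped in 6 lists, gave a smaller median. In c-Myc against juvenile libraries 87 of the 100 had a fold change above 1 and 58 were called higher, beside 18.4% of all tested genes, with none called lower, and the median log2 fold change was 1.39. In c-Myc + R172H 89 had a fold change above 1, 59 were called higher, beside 19.6% of all tested genes, 0 were called lower, and the median was 1.51. By list, 18 of 20 other spindle and cytokinesis genes were called higher in c-Myc (median 2.34), 9 of 11 mitotic entry regulators (1.74), 16 of 26 other kinetochore genes (1.65), 8 of 16 cohesin and condensin II genes (0.92), 4 of 10 genes of the DREAM and MYB-MuvB complexes (0.93) and 3 of 17 genes of the APC/C core and its regulators (0.26), a share of 17.6% that is near that of all tested genes. No gene of the 100 was called between c-Myc + R172H and c-Myc, where 0.469% of all tested genes were called. In the age comparison 2 of 83 tested (2.41%, beside 5.12% of all tested genes) were called, the condensin II gene *Ncaph2* (log2 fold change 0.53, adjusted p = 0.0126) and the APC/C gene *Anapc16* (0.85, adjusted p = 0.0146, both edgeR), and both were higher in juvenile libraries.

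*Mybl2*, the MYB subunit that turns MuvB into an activator, rose from a mean of 1.81 CPM in juvenile to 29.9 CPM in c-Myc libraries (log2 fold change 4.00, SE 0.20), *Tfdp1*, the E2F partner, from 18.8 to 94.1 CPM (2.30, SE 0.18) and *E2f4* from 12.3 to 42.8 CPM (1.77, SE 0.17). *Psrc1* and *Gtse1*, microtubule-binding proteins of mitosis, rose by 4.10 and 3.63 on the log2 scale, *Zwilch*, a kinetochore gene, by 3.88 and *Esco2*, a cohesin acetyltransferase, by 3.32. *Depdc1b* was at a mean of 0.0516 CPM in juvenile, which is below 3 counts, and at 3.68 CPM in c-Myc libraries. Of the APC/C list, *Fbxo5*, its inhibitor EMI1, rose by 2.59, *Anapc15* by 1.76 and *Anapc1* by 1.11 on the log2 scale.

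Promoter sequences were read because the 58 genes moved together. The cell cycle genes homology region (CHR), TTTGAA or TTCGAA, is the element bound by MuvB complexes, the CCAAT box is bound by NF-Y, and the E-box CACGTG is bound by MYC and its partners. Both strands were searched, from 250 bases before to 50 bases after each annotated start (RefSeq, GRCm38.p6), and a gene counted if any of its listed starts had a match. Sequence was found by symbol for 49 of the 58 genes; *Kif20a*, *Spc24*, *Ccna2*, *Incenp*, *Cdc25c*, *Tpx2*, *Aurkb*, *Smc4* and *Foxm1* had no entry. A CHR lay within 50 bases of the start in 33 of 49 genes (67.3%), against 4.34% of the 9808 tested genes with sequence and 6.12% of all 27025 genes with sequence. In the whole 300 bases it was present in 36 of 49 (73.5%, against 16.1% of tested and 21.7% of all genes). A CCAAT box was present in 34 of 49 (69.4%, against 43.2% of tested genes), and CHR and CCAAT together in 30 of 49 (61.2%, against 6.79%). The E-box was found in 3 of 49 (*Anln*, *Espl1* and *Ttk*, 6.12%, against 12% of tested genes).

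**Figure D5:**
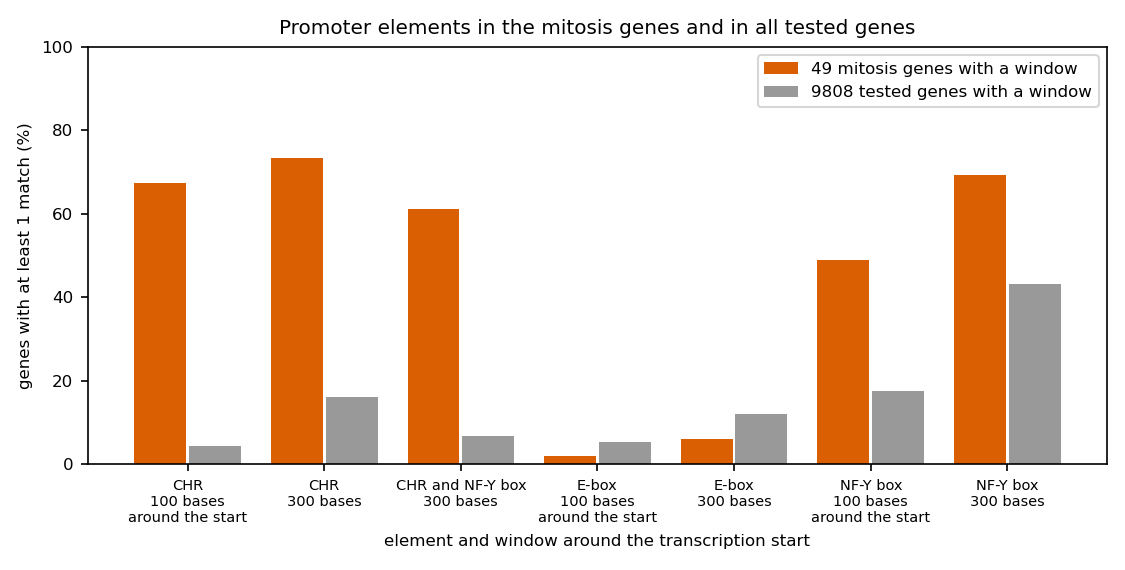
Share of genes with at least 1 match of each element in the 300 bases from 250 before to 50 after a start, or in the 100 bases around it, for the 49 mitosis genes with sequence (orange) and the 9808 tested genes with sequence (grey). The NF-Y box is the CCAAT box. The CHR bars differ most, 67.3% against 4.34% in the 100 bases around the start, and the E-box bars are short in both sets.

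Stretches of the 100 bases before the start show how these elements lie, with CHR and CCAAT matches in capitals on either strand (TTCAAA and ATTGG are the reverse complements) and coordinates in GRCm38.p6. *Top2a* and *Kif11* hold both elements, and *Ccnb2*, *Hmmr* and *Aurka* hold spaced CCAAT boxes with a CHR outside the printed stretch. *Plk4* and *Kif18a*, which had the smallest differences of their roles, hold neither, but neither do *Melk*, *Ncaph* and *Mad2l1*, which rose 6.93-fold, 4.03-fold and 3.44-fold in c-Myc, while *Bub3* and *Cenpf*, with the smallest differences of their roles, hold both in the 300 bases.
Top2a (chr11:99024190-99024289, minus strand): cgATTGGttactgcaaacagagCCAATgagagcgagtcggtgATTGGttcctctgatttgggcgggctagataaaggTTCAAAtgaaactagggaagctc
Kif11 (chr19:37376282-37376381, plus strand): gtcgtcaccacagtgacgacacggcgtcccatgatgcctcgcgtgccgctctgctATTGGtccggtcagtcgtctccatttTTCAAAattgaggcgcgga
Ccnb2 (chr9:70421555-70421654, minus strand): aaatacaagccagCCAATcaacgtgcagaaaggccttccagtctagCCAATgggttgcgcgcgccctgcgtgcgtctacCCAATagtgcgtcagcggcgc
Hmmr (chr11:40733438-40733537, minus strand): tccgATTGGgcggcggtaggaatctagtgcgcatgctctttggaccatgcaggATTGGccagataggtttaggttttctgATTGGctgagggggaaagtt
Aurka (chr2:172370571-172370670, minus strand): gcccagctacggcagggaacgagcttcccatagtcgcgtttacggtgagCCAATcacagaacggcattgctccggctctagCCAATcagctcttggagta
Plk4 (chr3:40799851-40799950, plus strand): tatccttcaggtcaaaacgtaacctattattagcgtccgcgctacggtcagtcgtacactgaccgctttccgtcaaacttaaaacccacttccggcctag
Kif18a (chr2:109280638-109280737, plus strand): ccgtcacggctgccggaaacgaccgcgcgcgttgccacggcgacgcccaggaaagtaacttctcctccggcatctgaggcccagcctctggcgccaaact

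The 36 genes with a CHR in the 300 bases had a median log2 fold change of 2.35 in c-Myc against juvenile libraries, from 0.92 to 4.06. The 13 without one had a median of 1.78, from 0.48 to 3.40, so the ranges overlapped. In c-Myc + R172H the medians were 2.47 and 2.01. *Pttg1*, *Kif18a* and *Cenpk*, which were not called in c-Myc, are among the 13, *Bub3* is among the 36, and *Ccnb1*, with the second largest difference of the 58 genes, is among the 13 and holds CCAAT boxes. The matches are letters in a fixed window, and no binding was measured.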

How the data were processed

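RNA was sequenced from 12 libraries of sorted osteoblasts (NEBNext Ultra II Directional kit, single-end reads). The authors deposited raw counts per gene. The submitters' processing notes name bcl2fastq 2.20, cutadapt 4.6, STAR 2.7.11a, HTSeq 2.0.5 and mm10. The strand setting of the counting is not given in the sources used here. Besides *Kif20a* and *Ube2c*, further genes have exons opposite another gene. The largest such shares of exon length were 15.1% in *Kif4*, 13.4% in *Ncapg*, 12.7% in *Cdc25c*, 12.5% in *Ccna2* and 11.1% in *Prc1*. The effect on their counts was not tested. From the deposited counts, genes were filtered with filterByExpr, scaled by TMM and tested with edgeR's quasi-likelihood test (edgeR 4.0.16, limma 3.58.1, R 4.3.3) with Benjamini-Hochberg adjustment over all tested genes. The age comparison was fitted on its 8 libraries. For the other 3 comparisons, the juvenile libraries and both induced groups went into a single model. Calls needed an adjusted p below 0.05 and, for an induced group against juvenile, also a 2-fold difference in either direction. The SE came from the fold change and its F statistic. Scripts were tested on simulated data. DESeq2 1.42.0, other scalings, filters and fits, a replicate block and leaving out each library were alternatives. The labels do not say how many animals gave each c-Myc or c-Myc + R172H library. *Xist* was at 0.0457 and 234 CPM in c-Myc and 0.183 and 212 CPM in c-Myc + R172H libraries. The libraries of a pair therefore did not come from the same set of animals. Their spread is not technical alone and includes any difference between the sexes. In the shared model the p-values also rest on the spread of the juvenile libraries.

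The genes and lists were chosen with earlier results of these data known. Values in every library are given, in each role, for the gene with the highest mean CPM and those with the largest and smallest fold change in c-Myc, for every gene not called there, and for the 3 smallest p where a comparison had no call; of each other list, up to 3 called genes with the largest fold were eligible.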

Additional observations from a re-analysis of the deposited data

Results flagged for a closer look

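In the 2 control groups, 116 sets of 4 values (58 genes in 2 groups) were examined for a library standing apart by Dixon's test at the 95% level. Of these, 7 were found, a share close to the about 1 in 20 that chance gives. Juvenile replicate 4 was low for the microtubule depolymerase gene *Kif2c*, at 0.994 CPM against 5.56 to 6.03 CPM in the other 3, and high for *Kif18a*, at 2.73 CPM against 0.722 to 0.974 CPM. Juvenile replicate 3 was low for *Ncapg*, at 0.556 CPM against 2.17 to 2.48 CPM. Adult replicate 1 was high for *Ccna2*, at 11.4 CPM against 5.87 to 6.18 CPM, for *Ncapd2*, at 30.9 CPM against 16.03 to 18.3 CPM, and for *Mki67*, at 49.7 CPM against 24.0 to 27.7 CPM. Adult replicate 2 was high for *Spc24*, at 5.64 CPM against 2.67 to 3.11 CPM. Of the 7, 3 fell in adult replicate 1, which also had the highest chondrocyte marker sum, and its part in these values was not tested.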

How the results depend on the processing

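Of 871 single-gene values under the alternatives, 837 kept their direction and side of the threshold, 14 gained a call, 20 lost one and 0 reversed. Scaled by library totals, the median log2 fold change of the 58 genes was 3.11 in c-Myc and 3.47 in c-Myc + R172H against juvenile (all tested genes 0.87 and 1.12), and 0.29 between the induced groups (all 0.21). Filtering on at least 10 counts in every library left 38 genes, of which 36 were called higher in c-Myc + R172H against juvenile, beside 17.7% of all tested genes. With all 12 libraries in the fit, 1 gene was called lower in the age comparison. With only the 2 induced groups, 3 were called higher between them, beside 1.55% of all tested genes. For the other call counts in this section, the share of all tested genes under the same alternative is not given. Juvenile and adult libraries with the same number in their titles did not deviate together (r from −0.066 to 0.0442). By library name, 2 numbers are shared (juvenile replicates 3 and 4 with adult replicates 1 and 2, r = 0.0224 and 0.13). The induced groups have 2 libraries each and so give a single value, r = 0.16 for equal numbers. In both, replicate 2 is the library with *Xist*, so the number cannot be told apart from that difference there. Numbers were not taken as pairing. With the replicate block, which leaves only juvenile replicates 1 and 2 for comparison with induced libraries, the medians against juvenile were 1.98 and 2.16, with 50 and 53 calls. Leaving out each library gave 0 calls and medians of −0.20 to 0.10 for age, 49 to 54 calls and 2.16 to 2.47 for c-Myc, 53 to 56 calls and 2.26 to 2.53 for c-Myc + R172H, and 0 calls and −0.01 to 0.13 between the induced groups. Low counts in the control libraries limit *Cenpk*, *Cenph*, *Kif18a*, *Cenpn* and *Spc25* most.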

Other observations

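The order of the 58 genes by level per kilobase changed between control and induced libraries. *Bub1b* was 29th in juvenile, 15th in adult, 6th in c-Myc and 5th in c-Myc + R172H libraries, and *Pttg1* was 13th, 12th, 42nd and 40th. Among *Cdk1* and its cyclins, *Ccnb1* had the lowest level per kilobase in juvenile (0.448 CPM per kilobase), adult (0.529) and c-Myc + R172H libraries (3.64), and *Cdk1* in c-Myc libraries (3.95). *Ccnb1*, *Ccnb2*, *Kif4* and *Kif22* have annotated pseudogenes, and the paper counted only uniquely mapped reads. The effect of this on their levels was not tested. By group means, 23 genes followed the order c-Myc + R172H, c-Myc, juvenile, adult from high to low, 17 had adult above juvenile in that order, 12 had c-Myc highest with adult above juvenile, and 6 had c-Myc highest with juvenile above adult.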
